A study of Mus musculus with 12 samples.

Results

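The BAF (SWI/SNF) complexes slide and evict nucleosomes with energy from ATP. A complex holds a single ATPase, either Smarca4 (BRG1) or Smarca2 (BRM), on a scaffold of further subunits, several of which come from paired genes that are used in different cell types. ES cells are known for a form built around Smarca4 and Smarcc1 with little Smarca2 or Smarcc2, and this form works at many of the enhancers that OCT4 and SOX2 bind. The accessible regions at 10 BAF subunit genes are described here: the 8 ES-cell subunit genes Smarca4, Smarcb1, Smarcc1, Smarcd1, Smarce1, Arid1a, Arid1b and Actl6a, and the comparison genes Smarca2 and Smarcc2. Each gene's window was its GENCODE body with 20 kb on either side, and every merged ATAC-seq region that overlapped a window was a member, which gave 179 of the 170548 regions of the genome, 159 of them at the 8 ES-cell subunits and 20 at Smarca2 and Smarcc2.

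ATAC-seq inserts sequencing adapters into open DNA with the transposase Tn5. The series holds 12 libraries of mouse ES cells in serum with LIF and the inhibitors CHIR99021 and PD184352, in 6 groups of 2 replicates. ZHBTc4 cells, which depend on an OCT4 transgene that doxycycline (dox) switches off, were OCT4 ON (no dox) or OCT4 OFF (dox for 24 hr), and 2TS22C cells, which carry a dox-repressed SOX2 transgene in the same way, were SOX2 ON or SOX2 OFF, with dox absent or present for 26 hr or for 40 hr. Dox was used at 1 µg/ml. The authors merged peaks from their experiments on both lines into 1 list of start and end positions. The study also used ZHBTc4 data that others had made in serum with LIF alone, and whether those peaks entered the list is not given in the sources used here. The list pools all conditions, so a region was open in at least 1 experiment, the height of a region and the depth of a library are unknown, and no value below compares cells with and without dox. The list holds no RNA measurement, so whether a subunit was expressed was not measured. Genes and regions are not replicates of a condition, and all comparisons below are descriptions without a test.

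The sequences printed here are the promoters of the paired ATPase and scaffold genes and the intronic regions with a match to the OCT4::SOX2 composite motif. The promoters are from RefSeq on GRCm38 (mm10), each 300 bases from 250 bases before to 50 bases after the gene's start, written along the plus strand of chromosomes 9, 19, 9 and 10, which is the coding strand of all 4 genes. They lie at chr9:21615919-21616218 (Smarca4), chr19:26604910-26605209 (Smarca2), chr9:110131774-110132073 (Smarcc1) and chr10:128458986-128459285 (Smarcc2). The RefSeq start used for these windows can differ from the GENCODE start used in the rest of the text. For Smarcc2 the GENCODE start, chr10:128459294, lies past the end of the printed window. Capitals mark exact matches, on either strand, to the core elements of SP factors (GGGCGG), ETS factors (CCGGAAG) and NRF1 (CGCATGCG).
Smarca4 promoter: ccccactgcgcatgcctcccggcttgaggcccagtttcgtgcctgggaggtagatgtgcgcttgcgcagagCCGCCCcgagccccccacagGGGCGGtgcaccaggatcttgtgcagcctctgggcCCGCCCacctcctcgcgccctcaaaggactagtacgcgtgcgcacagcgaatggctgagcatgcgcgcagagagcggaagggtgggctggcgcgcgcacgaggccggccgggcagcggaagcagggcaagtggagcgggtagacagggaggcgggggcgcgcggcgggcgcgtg
Smarca2 promoter: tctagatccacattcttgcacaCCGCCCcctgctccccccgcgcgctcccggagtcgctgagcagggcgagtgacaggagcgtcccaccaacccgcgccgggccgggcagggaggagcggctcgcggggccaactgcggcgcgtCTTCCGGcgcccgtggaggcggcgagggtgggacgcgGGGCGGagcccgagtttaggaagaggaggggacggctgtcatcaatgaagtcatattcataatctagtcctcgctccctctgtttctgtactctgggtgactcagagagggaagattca
Smarcc1 promoter: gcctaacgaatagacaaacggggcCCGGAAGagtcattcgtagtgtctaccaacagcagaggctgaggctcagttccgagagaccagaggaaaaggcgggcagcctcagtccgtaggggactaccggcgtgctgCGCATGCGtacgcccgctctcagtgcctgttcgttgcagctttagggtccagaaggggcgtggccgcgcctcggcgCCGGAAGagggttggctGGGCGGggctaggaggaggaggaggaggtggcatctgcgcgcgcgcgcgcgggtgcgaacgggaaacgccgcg
Smarcc2 promoter: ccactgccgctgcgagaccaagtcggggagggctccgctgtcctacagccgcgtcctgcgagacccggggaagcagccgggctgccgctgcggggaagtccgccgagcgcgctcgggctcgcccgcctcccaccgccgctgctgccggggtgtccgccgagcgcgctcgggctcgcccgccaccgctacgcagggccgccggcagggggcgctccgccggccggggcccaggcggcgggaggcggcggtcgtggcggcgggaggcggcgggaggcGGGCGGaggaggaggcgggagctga

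Each of these 4 promoters lay wholly inside an accessible region, and the share of all promoters that did so was not computed. The Smarcc1 promoter held 2 ETS matches, 1 NRF1 match and 1 SP match, the Smarca2 promoter 1 ETS match and 2 SP matches, the Smarca4 promoter 3 SP matches and the Smarcc2 promoter 1 SP match. The intronic regions below lie in intron 1 of Smarca2 (chr19:26608532-26608768, the whole region of 237 bp) and in intron 1 of Arid1b (chr17:5014903-5015202, the last 300 bases of a region of 484 bp), both on the plus strand of GRCm38, which is again the coding strand. Capitals mark the match to the composite motif, a SOX element (CATTGT), 1 base of any kind and an octamer (ATGCAAAT), allowed here at most 2 mismatches on either strand. The motif contains the single SOX and octamer elements, so these overlap it wherever they are intact.
Smarca2 intronic region: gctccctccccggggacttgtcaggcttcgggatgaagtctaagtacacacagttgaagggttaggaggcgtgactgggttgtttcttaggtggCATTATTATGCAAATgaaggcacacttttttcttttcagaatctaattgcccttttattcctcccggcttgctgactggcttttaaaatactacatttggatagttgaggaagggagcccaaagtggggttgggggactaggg
Arid1b intronic region: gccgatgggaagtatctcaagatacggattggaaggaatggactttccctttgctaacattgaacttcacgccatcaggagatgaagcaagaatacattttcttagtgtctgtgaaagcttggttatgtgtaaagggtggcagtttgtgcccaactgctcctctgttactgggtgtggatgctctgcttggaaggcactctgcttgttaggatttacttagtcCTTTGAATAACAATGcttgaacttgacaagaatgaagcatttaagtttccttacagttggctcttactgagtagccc

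Counted from 1 at the SOX element's 5′ end, the Smarca2 match differed from the motif by G5A, inside the SOX element, and kept the whole octamer. The Arid1b match, read on the minus strand, differed by G10T and T15G, both inside the octamer, and kept the whole SOX element. The octamer is the letters bound by POU factors such as OCT4, and a match is a description of the sequence, not a binding site.

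All 10 genes had an accessible region over their main transcription start site (TSS), the start of the principal transcript in GENCODE, beside 63.2% of the 21938 protein-coding genes. The regions over the main TSS were 858 bp to 2189 bp wide, with a median of 1201.5 bp, and the median of protein-coding genes with such a region was 1136 bp (quartiles 907 bp and 1405 bp). Open promoters were therefore shared by the ES-cell subunits and by Smarca2 and Smarcc2. At least 1 kb was reached at 8 of the 10 genes, and the exceptions were Smarca2 (858 bp) and Smarcd1 (884 bp). Of protein-coding genes, 9123 reached it, which is 41.6% of all 21938 and a larger share of the 13872 with a region over the main TSS. The regions over the main TSSs were rich in G and C, from 56.2% at Smarcc1 to 75.7% at Arid1a, with CpG at 0.80 (Smarcd1) to 0.98 (Arid1b) of the number that their base composition gives.

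**Figure D1:**
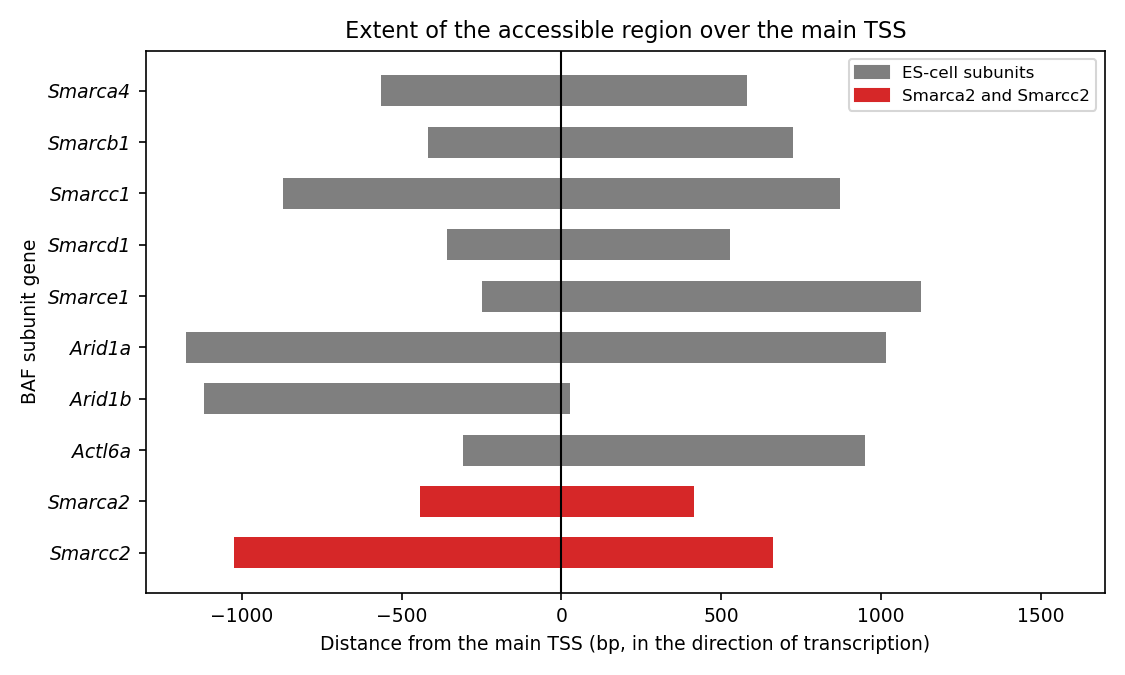
Extent of the accessible region over the main TSS of each BAF subunit gene, in bp from the TSS in the direction of transcription, with the 8 ES-cell subunits in grey and Smarca2 and Smarcc2 in red. All 10 regions cross the TSS, the Arid1a region is the widest at 2189 bp, and the Arid1b region ends 26 bp past the TSS.

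The ATPase genes differed more in what lay around the promoter than at the promoter itself. At Smarca4, the ATPase of the ES-cell complex, the TSS region (chr9:21615604-21616750, GRCm38) was 1147 bp wide and covered all 232 bases of exon 1. At Smarca2, the alternative ATPase, the TSS region (chr19:26604610-26605467) was 858 bp wide, the narrowest of the 10 genes, and covered all 182 bases of exon 1. Smarca2 had its widest region just downstream, in intron 1, at chr19:26605858-26607779 with 1922 bp, centered 1.77 kb past the main TSS and counted as promoter-proximal because further Smarca2 starts are annotated there. Smarca2 is annotated with 42 TSSs, more than almost any other gene (percentile 99.99 of protein-coding genes), and 6 of the 42 lay in an accessible region. A group of these starts lies far inside the gene and gives short transcripts of its 3′ part. The region at chr19:26747524-26748117, 594 bp wide in intron 27 and 143 kb from the main TSS, reached the edge of this group. Of the 21 Smarca2 starts with CAGE support in GENCODE, 16 lie within 1 kb of the center of this region, and 2 of the 21 were themselves inside a region.

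Beyond these starts Smarca2 was poor in accessible regions. Its window of 213 kb held 9 regions, of which 6 were distal (centered more than 1 kb from any annotated TSS), whereas the Smarca4 window of 128 kb held 23 regions, 19 of them distal. This is 2.81 distal regions per 100 kb at Smarca2 and 14.8 at Smarca4, with a median of 6.62 over protein-coding genes (quartiles 3.38 and 10.5), and it places Smarca2 at percentile 22.3 and Smarca4 at percentile 91.3. Both genes are long, at 173 kb and 88.1 kb. The 608 protein-coding genes within 1.2-fold of the length of Smarca2 had a median of 16 regions and of 6.15 distal regions per 100 kb, and the 1143 genes like Smarca4 a median of 12 regions and of 7.40 per 100 kb. Smarca2 lay below the median of its length class, and Smarca4 above.

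All 6 distal regions of Smarca2 lay in introns and were narrow, from 132 bp to 314 bp, with the widest in intron 5 at chr19:26640707-26641020. A stretch of 68.0 kb from there, 36.0 kb to 104 kb past the main TSS, held no region. Smarca2 was the only gene of the 10 with no region in either 20 kb flank, as was the case for 10.0% of protein-coding genes, and the first region outside the gene was 84.5 kb upstream and 44.1 kb downstream. At Smarca4 the distal regions were 151 bp to 625 bp wide and fell into 2 stretches of the gene, 5 of them in intron 1 within 16.04 kb of the TSS and the others from intron 19 on, with 36.1 kb without a region between them. A further 4 distal regions lay upstream of Smarca4, 1 of them with an exact octamer (10.1 kb upstream, 288 bp), and the widest distal region, 625 bp at chr9:21706612-21707236, lay in intergenic sequence 2.38 kb past the gene's end.

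**Figure D2:**
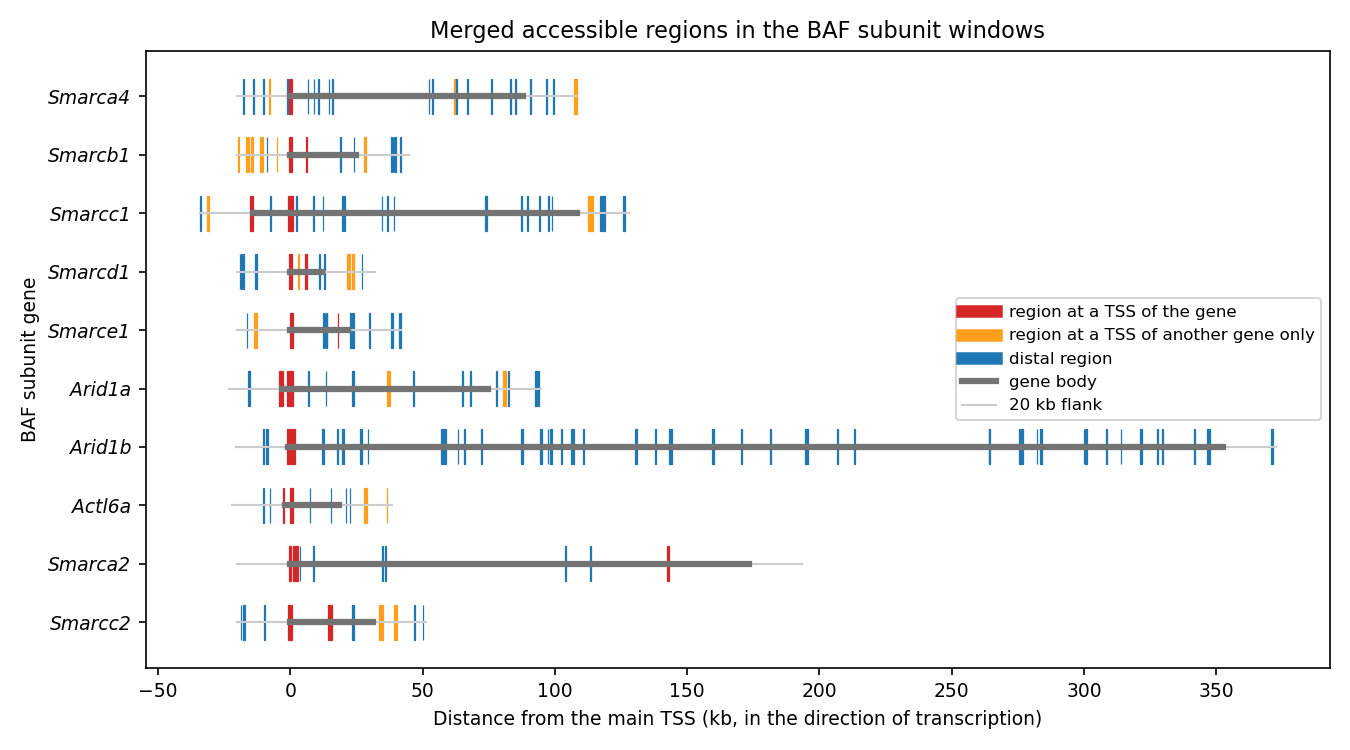
Merged accessible regions in the 10 windows, drawn to scale in kb from the main TSS in the direction of transcription, with regions at a TSS of the gene in red, at a TSS of another gene only in orange, and distal regions in blue. Smarca2 shows 9 regions in 213 kb with none in its flanks, and Arid1b shows 46 regions in 393 kb.

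The paired scaffold genes Smarcc1 (BAF155) and Smarcc2 (BAF170), whose products form the dimer at the base of the complex, both had wide promoter regions. The Smarcc1 region (chr9:110131108-110132852) was 1745 bp wide and reached 872 bp to either side of the main TSS, and the Smarcc2 region (chr10:128458270-128459957) was 1688 bp wide and covered all of exon 1 and the start of the microRNA gene Mir8105. They stood at percentiles 91.4 and 89.5 of the TSS regions of protein-coding genes. Both genes also had an open start of their own away from the main TSS. At Smarcc1 a region of 1332 bp (chr9:110116607-110117938), 14.7 kb upstream, covered the annotated start of the longest transcript together with the start of Dhx30, an RNA helicase gene transcribed the other way. At Smarcc2 a region of 1338 bp (chr10:128473561-128474898), 14.9 kb downstream, covered exons 12, 13 and 14 and further annotated starts, and all 6 annotated Smarcc2 TSSs lay in a region.

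Outside the promoters the scaffold genes differed in the gene body. Smarcc1 (122 kb) had 15 distal regions in its body, all 15 in introns, and 19 in its window, or 11.7 per 100 kb. They were 155 bp to 1031 bp wide, and the widest, at chr9:110249775-110250805, lay downstream in an intron of Cspg5, a proteoglycan gene with a TSS region of 1811 bp that was the widest region of the window. Smarcc2 (31.2 kb) had 1 distal region in its body, 491 bp in exon 20, and 6 in its window, or 8.42 per 100 kb. The other 5 lay in the flanks, with the widest, 650 bp at chr10:128441310-128441959, in intergenic sequence 17.7 kb upstream of the TSS. The Smarcc2 window was also shared with the TSS regions of Myl6 and Myl6b, myosin light chain genes, which took 3 of its 11 regions.

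The ARID subunits Arid1a and Arid1b, which exclude each other and set apart the canonical BAF complex, had the widest TSS region and the most distal regions, respectively. The Arid1a TSS region (chr4:133752596-133754784) was 2189 bp wide, at percentile 98.0, and a separate region of 1190 bp (chr4:133756574-133757763) lay 3.56 kb upstream over the start of its longest transcript. At Arid1b the region over the main TSS (chr17:4993956-4995100, 1145 bp) reached only 26 bp into exon 1, and after 182 bp outside any region a region of 1556 bp (chr17:4995283-4996838) covered the end of the exon.

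Arid1b is the longest gene of the 10 at 353 kb and held 46 regions, 44 of them distal, against a median of 20 regions in the 277 genes within 1.2-fold of its length. Of these 44 distal regions, 38 lay in introns of Arid1b, with 5 in intron 1, 9 in intron 2 and 8 in intron 4, and the longest stretch of the gene without a region was 50.4 kb. Per length Arid1b was like the other ES-cell subunits, with 11.2 distal regions per 100 kb beside a median of 4.44 for genes of its length. Its distal regions were also wide, with a median of 471 bp (344 bp over all 141110 distal regions) and 4 of them at least 1 kb, a width that 4.62% of all distal regions reached. The widest was 1251 bp in intron 6 (chr17:5270698-5271948). Arid1a (77.8 kb) held 15 regions and 10 distal ones, 8.49 per 100 kb, with the same median width of 471 bp. Its widest distal region, 1418 bp at chr4:133659694-133661111, lay 93.2 kb downstream of the TSS in an exon of Pigv, a gene for GPI anchor synthesis.

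The remaining core subunits have shorter genes than Smarca4, Smarcc1 and the ARID subunits. Smarcb1 (24.8 kb), which holds the complex on the nucleosome, had a TSS region of 1143 bp (chr10:75920892-75922034) and 16 regions in its window, 7 of them distal and 7 at the TSS of another gene only. Smarcd1 (11.9 kb), a subunit that contacts transcription factors, had a TSS region of 884 bp (chr15:99701772-99702655) and 13 regions, 7 distal. Smarce1 (21.97 kb), an HMG-box DNA-binding subunit, had a TSS region of 1374 bp (chr11:99229893-99231266) and 13 regions, 10 distal. These 3 windows gave 10.8, 13.5 and 16.1 distal regions per 100 kb, and the value of Smarce1 was the highest of the 10 genes. At Smarce1, 4 of the distal regions lay together in intron 7, between 12.4 kb and 13.9 kb past the TSS, and were 128 bp to 413 bp wide. Actl6a (20.7 kb), the actin-related subunit of dividing cells, had a TSS region of 1256 bp (chr3:32708200-32709455) and 10 regions, 6 of them distal, or 9.89 per 100 kb. The annotated start of the longest Actl6a transcript was not in a region, and it was the only gene start of the 10 that was not. The nearest region to it, 189 bp wide, lay in 97.4% soft-masked repeat sequence. Their widest distal regions were 858 bp for Smarcb1 (chr10:75881754-75882611), 624 bp for Smarcd1 (chr15:99688703-99689326), 807 bp for Smarce1 (chr11:99206861-99207667) and 384 bp for Actl6a (chr3:32698333-32698716), and all 4 lay outside the gene body.

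The ES-cell subunits had a median of 11.4 distal regions per 100 kb, with a range of 8.49 (Arid1a) to 16.1 (Smarce1), and Smarca2 (2.81) and Smarcc2 (8.42) lay below all 8. Smarcc2 was nonetheless above the median of protein-coding genes (6.62), at percentile 62.5, and above the median of 7.496 for genes within 1.2-fold of its length. The differences from the ES-cell subunit median of 11.4 were -8.63 per 100 kb for Smarca2 and -3.02 for Smarcc2. The standard deviation among the 8 ES-cell subunits was 2.57, and Smarcc2 and Arid1a differed by far less than that. The place of Smarcc2 moved with the window. In the gene body alone both comparison genes were lowest, with 3.46 (Smarca2) and 3.20 (Smarcc2) against 7.72 to 18.2, but the Smarcc2 value rests on 1 region. With 50 kb flanks Smarcc2 reached 13.0, above the ES-cell median of 11.5, whereas Smarca2 stayed lowest at 2.56. The Smarca2 window lay below all 8 ES-cell subunits at each size used. Smarcc2 did so only with flanks of up to 20 kb, and on few regions. It had 1 distal region in its body and 2 with 10 kb flanks, as did the ES-cell subunit Smarcd1. Values for protein-coding genes are given here at the 20 kb flank only.

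**Figure D3:**
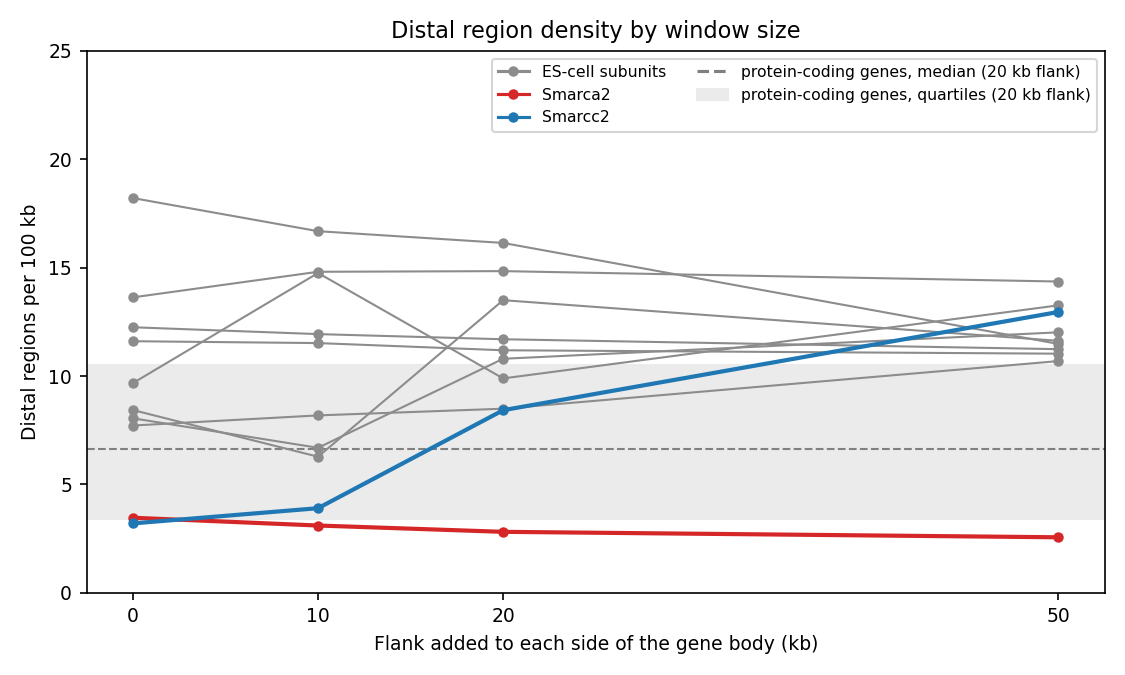
Distal regions per 100 kb for each BAF subunit gene with flanks of 0, 10, 20 and 50 kb (ES-cell subunits grey, Smarca2 red, Smarcc2 blue), with the median (dashed line) and quartiles (shaded) of protein-coding genes at the 20 kb flank. Smarca2 stays between 2.56 and 3.46, and Smarcc2 rises from 3.20 to 13.0 as the flank grows.

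**Figure D4:**
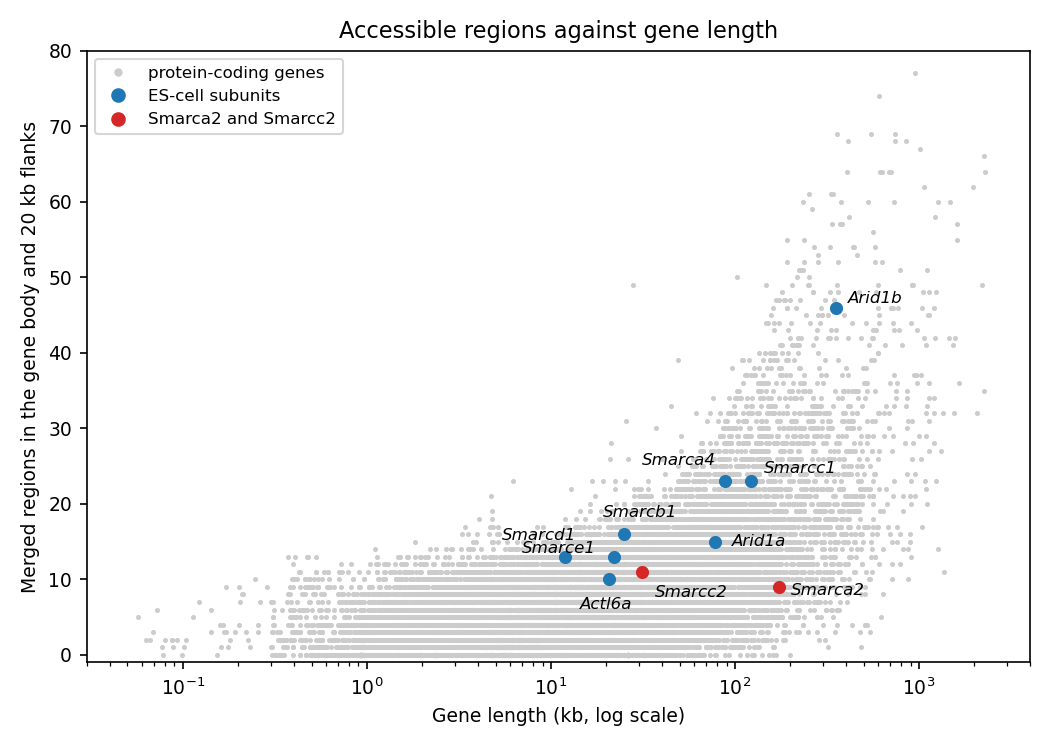
Number of regions in the gene body with 20 kb flanks against gene length (kb, log axis) for protein-coding genes (light grey), the 8 ES-cell subunits (blue) and Smarca2 and Smarcc2 (red), with 16 other genes above the top of the axis and 1 beyond its sides. Smarca2 holds 9 regions at 173 kb, fewer than Smarca4 with 23 at 88.1 kb.

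Across the 10 windows, 134 of the 179 regions were distal (74.9%, 95% Wilson interval 68.0% to 80.6%, which covers counting of regions only), beside 82.7% of all regions. The others were 18 at a TSS of the member gene, 2 at a TSS of the member and of another gene, and 25 at a TSS of another gene only. These distal shares are not like for like, since each window was placed on a gene and so holds a TSS. Windows of protein-coding genes had medians of 7 regions and 4 distal regions, and the 10 windows had medians of 14 and 8.5. Of the 134 distal regions in the 10 windows, 93 were centered in an intron, 11 in an exon and 30 between genes. Their median width was 329.5 bp, beside 344 bp over all distal regions. Regions near a TSS were wider, with a median of 884 bp in the 10 windows and 757 bp over all such regions. The regions covered 7.88% of the ES-cell subunit windows and 4.28% of the Smarca2 and Smarcc2 windows combined, with 2.18% at Smarca2 and 10.6% at Smarcc2.

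OCT4::SOX2 matches were rare in the BAF windows, at a share near that of all regions. The 2 regions whose sequences are printed above were the only ones of the 179 with at most 2 mismatches (1.12%), beside 1.04% of all regions, and both were distal and in intron 1. The Smarca2 site, at chr19:26608626-26608640, lay 17 bp from the center of its region, 3.60 kb past the TSS, and was the only one with 1 mismatch. The Arid1b site, at chr17:5015126-5015140, lay 172 bp from the center of a region 19.9 kb past the TSS. The exact octamer was in 4 of the 134 distal regions (2.99%, against 3.85% of all distal regions), which were the Smarca2 region, the upstream Smarca4 region and 2 regions in introns 4 and 8 of Arid1b. The SOX element was in 22 (16.4%, against 23.4%), the KLF element CCACACCC in 6 (4.48%, against 6.83%), the ESRRB element TCAAGGTCA in 4 (2.99%, against 2.52%), the AP-2 palindrome GCCNNNGGC in 23 (17.2%, against 14.2%) and the CTCF core AGGGGGC in 11 (8.21%, against 7.60%). These are exact matches on both strands over the whole region. The octamer, SOX and KLF shares were below those of all distal regions, and the ESRRB, AP-2 and CTCF shares were above them. These shares rest on 4 to 23 regions each, and no difference was tested.

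RefSeq promoter windows were at hand for 9 of the 10 genes, with 2 for Arid1a, which gave 10 windows among 32817. Of the 10, 9 lay wholly inside regions, and the Arid1b window had 277 of its 300 bases inside. The share of all promoter windows that lay wholly inside regions was not computed. GC content was 60.7% (Smarcb1) to 81.0% (Smarcc2), with a median of 68.7% beside 52.7% over all promoters, and the CpG ratio had a median of 0.95 beside 0.38. The SP element GGGCGG was in all 10, beside 35.6% of all promoters and 80.6% of the 9679 promoters with at least 60% GC. The ETS element was in 2 (Smarca2 and Smarcc1, beside 8.86% of all and 16.6% of the GC-rich promoters), NRF1 in 2 (Smarcb1 and Smarcc1, beside 1.86% and 3.52%) and the YY1 element AAGATGGC in 1 (Smarcd1, beside 2.74% and 3.77%). No member window held CCAAT (37.4% of all and 31.6% of the GC-rich promoters), TATAAA (13.6% and 3.20%), the octamer (1.74% and 0.785%) or the SOX element (12.6% and 4.68%), which says only that these letters are not in the windows.

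Other remodeler genes had open promoters to a like extent. The main TSS was in a region at 7 of 7 other shared BAF subunits (Smarcd2, Bcl7a, Bcl7b, Bcl7c, Actb, Dpf2 and Ss18), at 6 of 7 subunits of the PBAF and non-canonical BAF complexes (the exception was Bicral), at 5 of 5 neuronal or muscle BAF subunits (Actl6b, Dpf1, Dpf3, Ss18l1 and Smarcd3) and at 16 of 17 ATPases of other remodeler families (the exception was Chd3), beside 63.2% of protein-coding genes. An open promoter in this list therefore did not set subunits named for other tissues apart from ES-cell subunits. Median distal densities were 13.7 per 100 kb for the shared subunits, from 3.54 (Dpf2) to 18.3 (Actb), and 10.7 for PBAF and non-canonical BAF, from 2.81 (Brd7) to 20.9 (Bicral). They were 8.92 for the neuronal or muscle subunits, from 6.05 (Dpf3) to 14.8 (Ss18l1), and 9.67 for the other ATPases, from 0.81 (Smarca1) to 23.8 (Smarcad1). Values as low as that of Smarca2 thus also occurred in Brd7, a PBAF subunit, and lower ones in 3 of the other ATPases, Smarca1 of the ISWI family, Chd8 (1.00) and Ep400 (1.37), the last 2 named after their values were seen.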

How the data were processed

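The series holds 12 ATAC-seq libraries. The authors aligned reads to mm10 (GRCm38) with STAR 2.6.1c, removed duplicates with Picard, called peaks from read pairs with MACS2 2.1.1.20160309 and used bedtools to merge peaks across both cell lines and every treatment. Whether peaks were called per replicate, and whether published ZHBTc4 data in serum with LIF were included, is not given in the sources used here. The deposited file gives each merged region by its chromosome, start and end only. It holds no count or score, and 0 columns belong to a single sample, so no depth, interval over replicates or dox comparison was possible. The authors state that they removed peaks larger than 5 kb and peaks that overlapped input peaks or blacklisted regions. Regions wider than 5 kb were still in the list (16 in all, 0 in the windows). Whether the input and blacklist filters had been applied to the list was not checked.

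GENCODE M21 on GRCm38 gave genes and TSSs, and coordinates are counted from 1. The text names the 10 genes, in each window the TSS region, the widest region and the widest distal region, regions with an OCT4::SOX2 match, neighbours with a region at their TSS (not all are reported here), and from other lists the genes without a TSS region and those of highest and lowest density. Other regions, and the 1.2-fold limit for genes of like length, were chosen after values were seen. Genes and lists were chosen with earlier results of these data known. Protein sequences were not analysed here. The functions were tested on simulated data. Tables were made with pandas 2.3.3 and NumPy 2.4.6, intervals with SciPy 1.17.1 and figures with matplotlib 3.10.9, under Python 3.11.15.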

Additional observations from a re-analysis of the deposited data

How the results depend on the processing

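No paired analysis was possible because the merged list has no value per sample, and for the same reason no replicate was left out in turn and no stricter score was tried. Of 28 recomputed values, 20 kept their direction and stayed within the spread among genes or the counting interval, or within 1.5-fold for counts. With 50 kb flanks the windows held 269 regions, and Smarcc2 moved from below the ES-cell subunit median to above it (a difference of 1.40 distal regions per 100 kb). The Smarcc2 difference was -7.82 with 10 kb flanks and -7.44 in the gene body alone, an alternative chosen after seeing the data. With 1 TSS per gene, the distal share was 83.2%. Allowing the OCT4::SOX2 motif 3 mismatches raised its count to 10 member regions (the share among all regions was then 6.66%). The count was 1 for a limit of 1 mismatch (0.0915% of all regions matched) and 1 in the central 200 bp (0.556% of all regions matched). The Smarca2 difference ranged from -8.99 to -8.12 over the other flanks, widths and TSS sets, and in 2 alternatives added after seeing the data it was -9.78 without transcripts with an incomplete start and -7.18 in the gene body alone. The list limits what can be read from it: the 10 genes are few, counts of 1 to 10 distal regions carry most densities, and a region open in 1 experiment weighs as much as one open in all.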

Other observations

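The windows also held the TSSs of 17 other protein-coding genes, and 15 of them had a region centered within 1 kb of a TSS, a share not given here for all protein-coding genes. Among them were regions of 1811 bp at Cspg5 and 1332 bp at Dhx30, both next to Smarcc1. Next to Actl6a, Mrpl47, a mitochondrial ribosome gene, and Ndufb5, a subunit of respiratory complex I, shared a region of 1242 bp. Next to Arid1a the region at Pigv was 1220 bp wide, next to Smarce1 the region at Krt222, a keratin gene, was 1138 bp, and next to Smarcc2 the region at Myl6b was 1142 bp. The region at Krt222 held an exact octamer, as did the 1041 bp region that Chchd10 and Mmp11 shared next to Smarcb1. Cox14, an assembly factor of respiratory complex IV next to Smarcd1, had a region of 721 bp, and the 2 genes without a region at a TSS, Asic1, an ion channel gene of neurons, and Gpd1, an enzyme gene of glycerol metabolism, lie next to Smarcd1 as well. Smarca2 and Arid1b were the 2 genes with no TSS of another protein-coding gene in their window.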
